A study of Sus scrofa with 599 samples.

Results

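Mesenteric adipose tissue (MAD), the fat of the sheet of peritoneum that carries vessels to the intestine, was compared with the upper layer of backfat (ULB), the outer subcutaneous fat of the back, in grown sows of the Bama pig, a miniature breed from China. All animals of this comparison belonged to the weight-gain (WG) group, which had been fed a high-fat diet. The members were the WG samples of these 2 depots whose table columns matched a deposited sample: 74 of the 236 RNA-seq libraries of the series (36 MAD and 38 ULB) and 76 of its 240 in situ Hi-C maps (37 MAD and 39 ULB). H3K27ac ChIP-seq regions came from 5 tables made from pooled reads of WG subgroups, 3 of MAD and 2 of ULB. The paper formed WG subgroups by clustering on estimated cell composition. The MAD tables were of subgroups 2, 4 and 5 and the ULB tables of subgroups 5 and 6. Only subgroup 5 thus had a table of both depots, and depot and cell composition could not be fully told apart. The same depots of pigs on a normal diet (NC, 12 MAD and 5 ULB libraries) and of pigs that had lost weight under calorie restriction after the high-fat diet (WL, 10 MAD and 10 ULB libraries) were used to ask whether the depot difference changed with nutrition. No group carried a transgene or a drug. RNA-seq was made from whole pieces of tissue, where fewer cells of a type and less RNA per cell could not be told apart. For Hi-C, the paper describes taking the upper layer with the adipocytes after centrifugation. RNA-seq and Hi-C may thus hold different cells, and the part of this in the results was not tested.

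Visceral fat such as MAD drains into the portal vein and lies beside mesothelium, lymphatic vessels and lymph nodes, whereas backfat lies in fascia under the skin. The fat cells and stromal progenitors of the depots descend from different embryonic mesenchyme, and transcription factors that mark body position, among them the HOX genes, stay expressed in the adult tissue. In Hi-C maps the genome falls into an open, gene-rich A compartment and a closed B compartment, and within these into topologically associating domains (TADs), stretches of chromatin that contact themselves more than their neighbours.

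Adipocyte genes were abundant in both depots, whose labelled tissue is fat: ADIPOQ, which encodes the hormone adiponectin, ran from 1091 to 6041 TPM in MAD and from 1431 to 4361 TPM in ULB, where TPM is the authors' length-scaled share of each library's transcripts. The total count on protein-coding genes (PCGs) ran from 4841230 to 22797044 in the MAD libraries and from 13228217 to 22303106 in the ULB libraries. Several libraries stood apart from their group. In MAD replicate 31, the summed TPM of B and plasma cell genes was 4100, against a median of 97.7 in MAD, and in MAD replicate 19 PCGs took 65.6% of all TPM, against at least 86.1% in every ULB library. ULB replicate 7 was the highest ULB library for a set of genes that marked MAD, with 23.8 TPM of WT1 against at most 0.741 in the other 37 ULB libraries. It was the highest ULB library for 17.6% of the PCGs higher in MAD and for 6.14% of the PCGs that did not differ. Its EN1, a gene of backfat, was at 18.2 TPM, within the range of the other ULB libraries. ULB replicates 20 and 22 held 0.294 and 0.262 TPM of IRX1, against at least 5.93 TPM in the other ULB libraries. The Hi-C sample of ULB replicate 7 did not show the same: among 39 ULB samples, its index of open chromatin ranked 28th at NKX2-3 and 38th at WT1 from the highest. Depot differences are given below for all libraries, and for some genes and lists also without these 5 RNA-seq libraries. Skeletal muscle genes were also high in 1 MAD and 4 ULB libraries. The summed TPM of intestinal epithelium genes was 19.6 and 46.8 in MAD replicates 20 and 39, against a median of 2.70 in MAD. In ULB replicates 18 and 19 it was 29.5 and 20.6, against a median of 4.23 in ULB. B and plasma cell genes were also high in MAD replicate 11 (280), and keratinocyte genes in MAD replicate 39 (9.33).

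Of 13658 PCGs detected above 0.5 TPM in at least 80% of the libraries of either depot, 1117 were higher in MAD (8.18%) and 854 were lower (6.25%) by edgeR's quasi-likelihood test, with an adjusted p under 0.05 and more than 1.5-fold between depots. These are called differentially expressed genes (DEGs), and log2 fold changes are those of MAD over ULB. The SE beside a log2 fold change was worked back from the test, as its absolute value divided by the square root of edgeR's F statistic. It is an approximation, least sure for genes near 0 in 1 depot. Without the 5 libraries that stood apart, 1121 were higher and 872 lower. With the replicate number as a block in the model, 1039 were higher and 857 lower, of which 976 and 771 were shared with the fit without the block. For 12 PCGs, every MAD library was above every ULB library, and for 21 every MAD library was below.

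Transcription factors of body position were among the PCGs with the largest differences. NKX2-3, a homeobox factor of visceral mesoderm and of the spleen and gut wall, ran from 1.52 to 13.1 TPM in MAD with a median of 6.97. In ULB it was at 0 in 31 of 38 libraries, and its highest value, in ULB replicate 7, was 0.471 TPM. No MAD library overlapped a ULB library (log2 fold change 7.78, SE 0.283, adjusted p = 8.6e-38), and the difference was 8.66 without the libraries that stood apart. TCF21, a bHLH factor of visceral mesenchyme and of white fat progenitors, ran from 3.38 through a median of 8.33 to 21.8 TPM in MAD and from 0 through 0.0542 to 2.31 TPM in ULB. Again the depots did not overlap (6.02, SE 0.323, adjusted p = 2.0e-27). HAND2, a bHLH factor of lateral mesoderm, was at 1.68 to 9.22 TPM in MAD (median 5.11) and at 0 to 3.09 TPM in ULB (median 0.200). Here 33 of 36 MAD libraries exceeded the highest ULB library, which was replicate 7 (3.99, SE 0.240). WT1, a zinc finger factor of mesothelium and of visceral fat progenitors, was at 4.25 to 28.9 TPM in MAD (median 8.85) and at 0 to 23.8 TPM in ULB (median 0.154). A single ULB library, replicate 7, made these ranges overlap: the log2 fold change was 3.59 (SE 0.426, adjusted p = 3.9e-11) with it and 5.56 without it.

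In the other direction, ZIC1, a zinc finger factor of dorsal mesoderm and neural tissue that is also used as a mark of brown fat, was at 0 in 34 of 36 MAD libraries and reached 0.279 TPM there. In ULB it ran from 2.08 to 47.6 TPM with a median of 7.92. The fitted log2 fold change was -9.38 (SE 0.356, adjusted p = 1.3e-36), a value that depends, like its SE, on how libraries at 0 are handled. EN1, a homeobox factor of dorsal dermomyotome and ventral limb ectoderm, ran from 0 through 0.316 to 1.08 TPM in MAD and from 3.67 through 12.8 to 23.9 TPM in ULB. All 38 ULB libraries lay above all MAD libraries (-5.07, SE 0.177, adjusted p = 1.4e-38). IRX1, of the Iroquois family, had medians of 0.278 and 9.48 TPM (-4.73, SE 0.281), and 36 of 38 ULB libraries exceeded the highest MAD library. The exceptions were replicates 20 and 22.

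**Figure D1:**
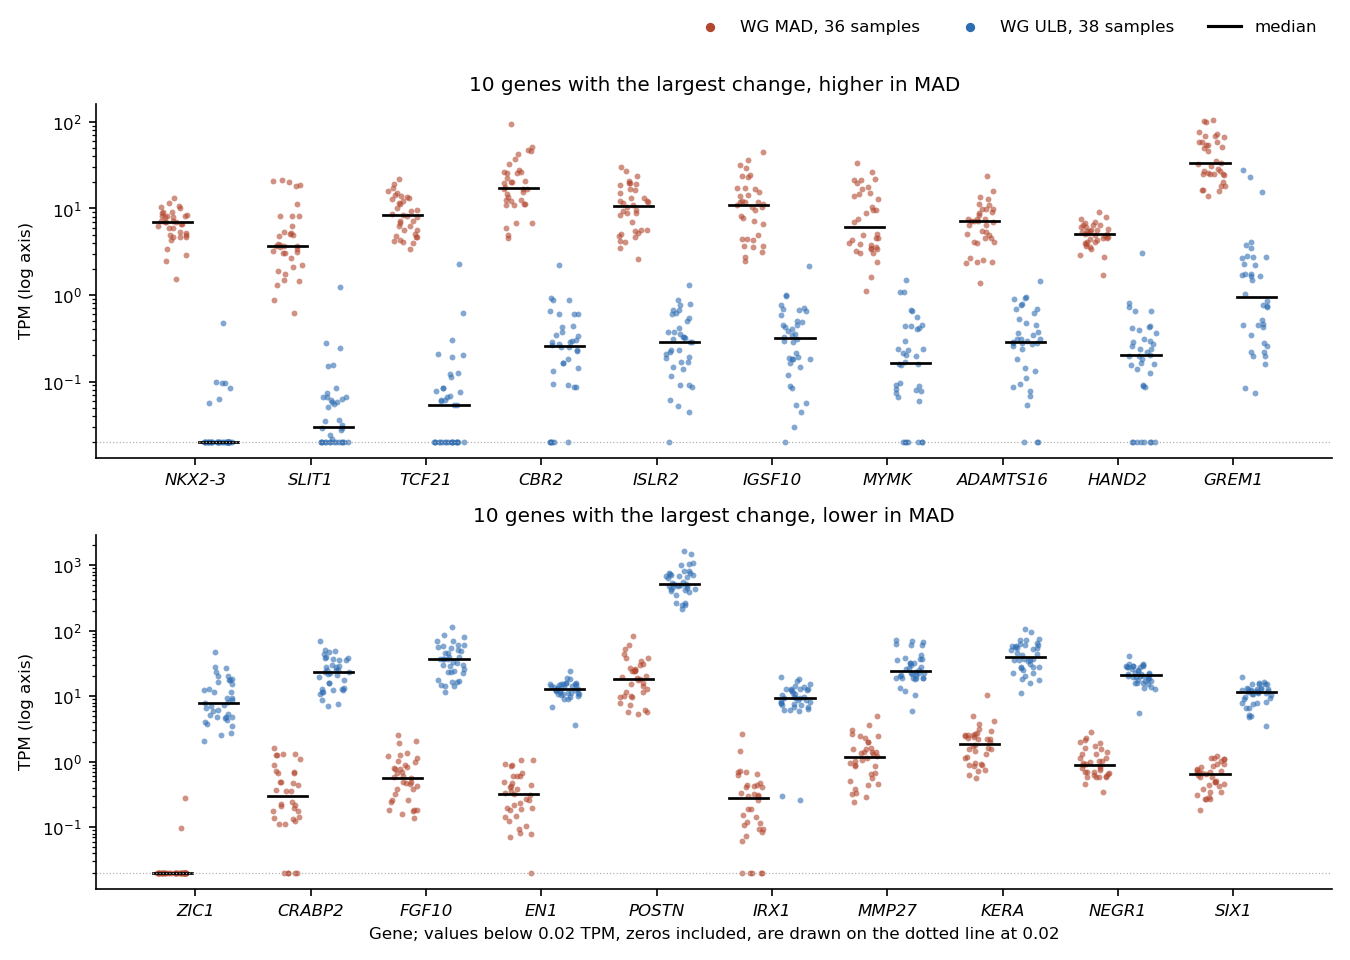
TPM of genes with large depot differences in every WG library (log axis, with values below 0.02 drawn on a dotted line), MAD in red and ULB in blue, with the median as a line. NKX2-3 and TCF21 sit above all ULB libraries in MAD, and ZIC1 and EN1 sit above all MAD libraries in ULB.

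The 250 bases before the RefSeq start of these genes (pig build Sscrofa11.1, printed 5′ to 3′ on the gene's strand) are shown because both expression and the A-B index of chromatin (below) differed at these starts. Capitals mark exact matches on either strand. The TATA box, spelled TATAAA, occurred in 7.99% of the same windows of 13537 PCGs. The CCAAT box, spelled CCAAT, occurred in 31.8%. The GC box, spelled GGGCGG, occurred in 53.1%. A match is a description of the letters.
NKX2-3, chr14:110720134-110720383, plus strand: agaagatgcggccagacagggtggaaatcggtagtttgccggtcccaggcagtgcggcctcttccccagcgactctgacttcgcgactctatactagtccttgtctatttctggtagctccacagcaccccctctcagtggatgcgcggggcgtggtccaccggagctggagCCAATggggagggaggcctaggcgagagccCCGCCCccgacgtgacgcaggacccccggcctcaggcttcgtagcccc
TCF21, chr1:29978274-29978523, minus strand: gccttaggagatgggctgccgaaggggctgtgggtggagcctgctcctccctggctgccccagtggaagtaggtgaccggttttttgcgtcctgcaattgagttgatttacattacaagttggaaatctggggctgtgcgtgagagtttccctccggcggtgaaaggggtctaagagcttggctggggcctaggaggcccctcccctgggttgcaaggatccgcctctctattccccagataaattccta
ZIC1, chr13:87740519-87740768, plus strand: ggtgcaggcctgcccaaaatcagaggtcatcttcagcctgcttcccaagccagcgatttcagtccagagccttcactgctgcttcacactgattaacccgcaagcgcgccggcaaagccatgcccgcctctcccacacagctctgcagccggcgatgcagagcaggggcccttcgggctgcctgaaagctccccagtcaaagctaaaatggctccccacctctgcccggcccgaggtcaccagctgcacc
EN1, chr15:24408378-24408627, minus strand: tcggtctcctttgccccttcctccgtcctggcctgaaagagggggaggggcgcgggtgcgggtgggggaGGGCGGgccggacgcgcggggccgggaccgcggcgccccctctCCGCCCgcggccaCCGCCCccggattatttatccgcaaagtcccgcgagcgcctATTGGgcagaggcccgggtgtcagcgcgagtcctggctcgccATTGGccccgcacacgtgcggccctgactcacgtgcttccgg
NKX2-3 held 1 CCAAT box and 1 GC box. EN1 held 2 CCAAT boxes and 3 GC boxes. None of the motifs was found in the windows of TCF21 and ZIC1. The GC content was 64.8% at NKX2-3, 57.2% at TCF21, 62.4% at ZIC1 and 74.0% at EN1, and the EN1 window had 32 CpG dinucleotides against a median of 15 over all windows.

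As a list, 7 of 12 tested transcription factors of visceral and mesothelial lineage were higher in MAD and 0 lower, with a median log2 fold change of 1.65 against 0.02 over all PCGs tested. Beside those above they were MEIS1, a HOX cofactor (medians 51.8 and 11 TPM, log2 fold change 2.04), FOXF1, a forkhead factor of splanchnic mesoderm (1.94), and GATA6, a factor of endoderm and heart (1.36). Members that did not pass included BNC2 (-0.28) and TBX18 (-0.10). Of 13 tested factors of subcutaneous patterning, 9 were lower in MAD and 1 was higher, with a median of -1.81. The lower members held the Iroquois genes IRX1, IRX2 (-6.50), IRX3 (-1.42) and IRX5 (-2.90), the limb genes TBX5 (-2.84), SHOX2 (-0.92) and PRRX1 (-1.81), and MSX2 (-3.11). TBX1, a factor of pharyngeal mesoderm that is also used as a mark of beige fat, went the other way, with medians of 2.41 TPM in MAD and 0.620 TPM in ULB (1.88, SE 0.177). These counts were the same without the libraries that stood apart.

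HOX genes, which are expressed along the body axis in the order of their position within each cluster, split by cluster. Of 7 tested HOXB genes, 6 were higher in MAD and 0 lower. HOXB8 (medians 2.08 and 0.376 TPM, log2 fold change 2.37) and HOXB5 (1.96 and 0.321 TPM, 2.04) differed most. HOXB2 (0.54) was below the fold limit, and HOXB3 (0.61) lost the call without libraries high in genes of other tissues. Of 5 tested HOXD genes, 4 were lower in MAD, and the fifth, HOXD4 (-0.56), joined them with the replicate block. HOXD8 ran from 6.04 to 48.3 TPM in MAD (median 14.9) and from 46 to 118 TPM in ULB (median 81.6). All but 1 of the ULB libraries exceeded the highest MAD library (-2.22, SE 0.155, adjusted p = 4.1e-21). HOXD9 was lower by less (-1.71). HOXD10 was lower at the median (0.172 against 0.836 TPM, -0.97), although 2 MAD libraries were above every ULB library, with up to 5.13 TPM. Among the HOXA genes, HOXA2 was higher in MAD (1.33). Of 5 HOXC genes, HOXC8 (-0.90) and HOXC9 (-1.14) were lower and 0 higher.

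Secreted signals of patterning differed as well. FGF10, a growth factor that preadipocytes and limb mesenchyme release, was at 0.139 to 2.60 TPM in MAD (median 0.572) and at 11.8 to 114 TPM in ULB (median 36.7). No MAD library reached the lowest ULB library (-5.77, SE 0.249, adjusted p = 5.8e-33). CRABP2, which carries retinoic acid to the nucleus, was lower by the same amount in MAD (medians 0.301 and 23.2 TPM, -5.77, SE 0.258). SLIT1, a guidance ligand of the Robo receptors, was at 0.624 to 21.5 TPM in MAD and at 0 to 1.23 TPM in ULB (6.25, SE 0.400), and ISLR2, a membrane protein of axon growth, was higher too (5.04, SE 0.242). MYMK, known from the fusion of myoblasts, had medians of 6.06 and 0.165 TPM (4.98). Of the other genes with the largest differences, the carbonyl reductase CBR2 (medians 17.4 and 0.258 TPM, 5.93) and the immunoglobulin superfamily member IGSF10 (2.49 to 44.4 TPM in MAD and 0.0134 to 2.15 TPM in ULB, 4.99) were higher in MAD, and the neuronal growth regulator NEGR1 (medians 0.902 and 20.9 TPM, -4.36) was lower.

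Among 16 tested WNT ligands and inhibitors, 8 were higher in MAD and 2 lower (median 0.94). The ligands WNT5B (medians 13.1 and 1.75 TPM, 2.91), WNT2B (2.08), WNT16 (1.85), WNT5A (1.59) and WNT10B (1.45) and the agonist RSPO1 (2.56) were higher. The secreted inhibitors were divided: SFRP2 (1.67) and DKK3 (1.56) were higher in MAD, and SFRP1 (-1.05) and SFRP4 were lower. SFRP4 ran from 4.30 to 46 TPM in MAD and from 63.5 to 292 TPM in ULB, with no overlap (-2.97, SE 0.141). Of 15 genes of the IGF axis and of BMP signalling, 5 were higher and 2 lower. The BMP antagonist GREM1 was at 14 to 106 TPM in MAD (median 33.2) and at 0.0729 to 27.6 TPM in ULB (median 0.950), and 21 MAD libraries exceeded the highest ULB library, replicate 7 (3.92, SE 0.384). The ligand BMP7 was also higher (medians 2.15 and 0.115 TPM, 3.89). IGF1 (-0.93) and IGFBP5 (-1.99), a binding protein of IGF1, were lower.

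Stromal genes formed a further contrast. Of 20 tested fat progenitor genes, 7 were higher in MAD and 4 lower. PI16, a mark of progenitors in the connective sheath around fat lobules, ran from 133 through 391 to 852 TPM in MAD and from 9.37 through 28.8 to 59.1 TPM in ULB. The depots did not overlap (3.63, SE 0.148, adjusted p = 1.6e-34), nor did they for MFAP5, a protein of microfibrils (medians 365 and 74.0 TPM, 2.46, SE 0.158). DPP4, a mark of the same progenitors, was higher by 1.18. APOD, a lipocalin of fibroblasts, was lower in MAD (medians 60.4 and 452 TPM, -2.95), and so was the pericyte receptor PDGFRB (-0.84).

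Of 26 tested genes of fibrillar and type VI collagens and matrix, 12 were lower in MAD and 4 higher. POSTN, which encodes the matrix protein periostin, was at 5.41 to 83.2 TPM in MAD (median 18.6) and at 214 to 1657 TPM in ULB (median 519), with no overlap (-4.82, SE 0.233, adjusted p = 5.2e-30). COL1A1 was at 22.6 to 676 TPM in MAD and at 74.8 to 4559 TPM in ULB, ranges that overlapped (medians 123 and 686 TPM, -2.57, SE 0.323). COL1A2 (-2.42), COL3A1 (-2.02), COL6A1 (-1.25), COL6A3 (-1.40), COL12A1 (-1.16) and SPARC (-0.92) were lower with them. FBN1, which builds microfibrils, went against the list: it ran from 184 to 2167 TPM in MAD (median 507) and from 121 to 259 TPM in ULB (median 177), and 33 of 36 MAD libraries exceeded every ULB library (1.57, SE 0.112). TNXB (1.20), COL14A1 (0.63) and COL6A5 (0.68) were the others that were higher. The proteoglycan KERA (medians 1.89 and 39.8 TPM, -4.40) and the protease MMP27 (1.18 and 24.2 TPM, -4.45), found outside this list, were lower in every MAD library than in every ULB library, and the protease ADAMTS16 was higher in MAD (4.21). Of 13 basement membrane genes, 1 was higher and 3 were lower. The higher one, COL4A6 (0.60), lost the call with the replicate block, and 0 were higher without the libraries that stood apart. NID2 (-0.93), COL4A5 (-0.69) and COL18A1 (-0.68) were the lower ones.

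**Figure D2:**
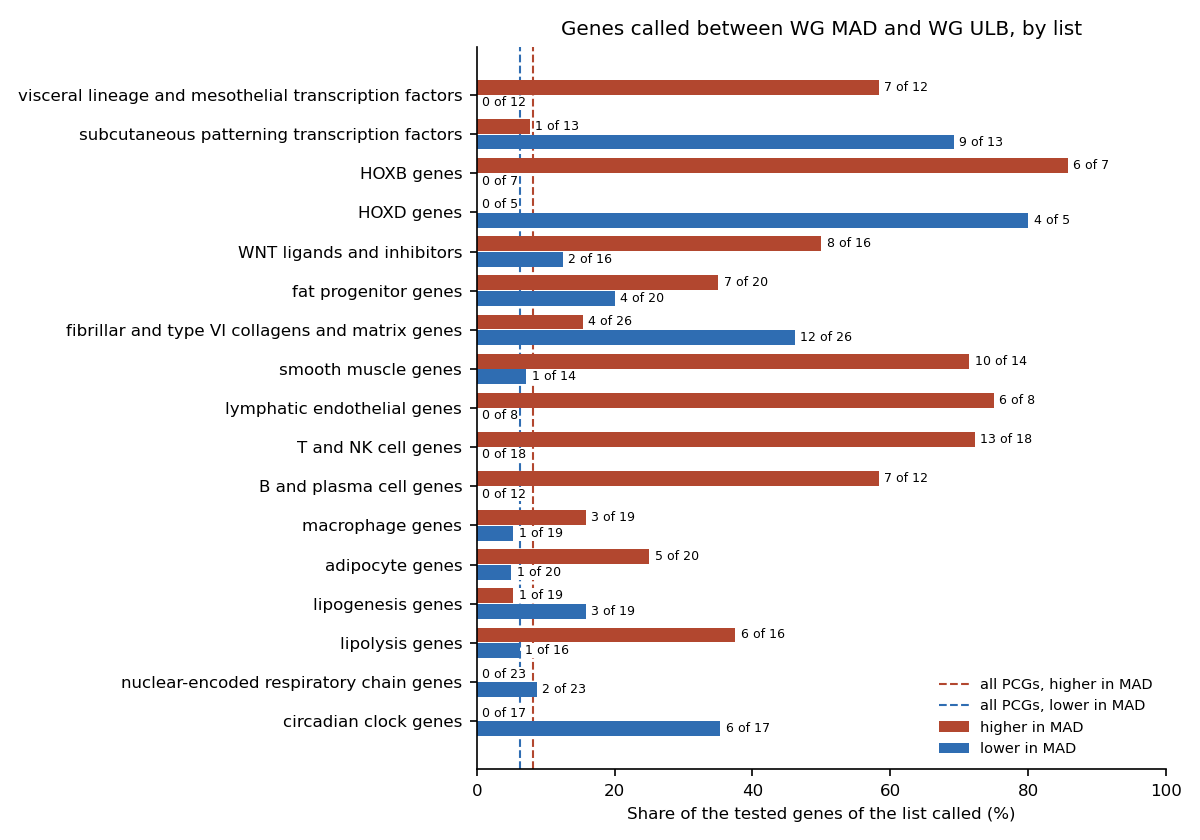
Share of the tested genes of each list that were higher (red) or lower (blue) in MAD, in percent, with the counts at the bars. Dashed lines give the shares over all PCGs tested, 8.18% higher and 6.25% lower, and the HOXB, lymphatic, T cell and smooth muscle bars reach past 70% on the higher side.

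Most tested genes of smooth muscle and of lymphatic endothelium were higher in MAD, and most endothelial genes did not pass. Of 14 smooth muscle genes, 10 were higher and 1 lower. LMOD1 (medians 33.2 and 9.81 TPM, 1.63) and SYNPO2 (246 and 92.0 TPM, 1.41), both of the contractile apparatus, differed most, and 32 MAD libraries exceeded every ULB library for SYNPO2. ACTA2 (0.71) and MYH11 (0.93) were higher, and RGS5, a mark of pericytes, was lower (-0.75). Of 8 lymphatic endothelial genes, 6 were higher and 0 lower, and with the replicate block PDPN (-0.57 without it) was lower. They held PROX1 (1.13), the master factor of lymphatic identity, FLT4 (1.53), the receptor of VEGFC, RELN (1.55), MMRN1 (1.03), LYVE1 (0.65) and CCL21 (1.78), the chemokine that guides T cells into lymphatics. Of 17 endothelial genes 3 were higher, TEK (medians 91.5 and 38.6 TPM, 1.11), RBP7 (1.09) and PLVAP (0.60), and CLDN5 (-0.60) was lower. The calls of PLVAP and CLDN5 were lost with the replicate block.

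Lymphocyte genes were higher in MAD, and part of that count moved with the libraries used. Of 18 T and NK cell genes, 13 were higher and 0 lower, and 9 were higher with the replicate block. Leaving out the 5 libraries that stood apart gave 10 higher and 1 lower. IL7R, the receptor of the T cell survival factor IL-7, ran from 1.62 through 17.4 to 110 TPM in MAD and from 3.67 through 10.0 to 16.5 TPM in ULB (1.22, SE 0.191). CD28, a costimulatory receptor, had medians of 1.69 and 0.951 TPM (1.00, SE 0.205), and 0.76 without those libraries. KLRK1, an NK cell receptor, had a log2 fold change of -0.49. Of 12 B and plasma cell genes 7 were higher, and 4 were higher without those libraries. MS4A1, which encodes CD20, was at 0.0730 to 136 TPM in MAD and at 0 to 3.29 TPM in ULB, and its log2 fold change of 2.92 became 1.24. The summed TPM of the B and plasma cell list was 51.7 to 4104 in MAD and 46 to 174 in ULB, and that of the T and NK cell list was 71.1 to 672 in MAD and 81.3 to 166 in ULB. The part of lymph node tissue in these counts was not tested.

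Macrophage genes differed less. Of 19 tested, CD163 (medians 187 and 83.6 TPM, 0.83), LYVE1 and TIMD4 (1.09), which are used as marks of resident macrophages, were higher in MAD, and the tetraspanin CD9 was lower (-0.75). LYVE1 was also counted among the lymphatic genes above. Other members of the list, among them MRC1 (-0.21), F13A1 (0.02), VSIG4 (0.37) and CSF1R (-0.02), were not called. TREM2 (0.46, adjusted p = 0.10) and GPNMB (-0.04), which mark lipid-laden macrophages, did not pass. None of 6 MHC class II genes passed, with CD74 at medians of 1064 and 1033 TPM (0.08). Among 23 chemokines and receptors, 5 were higher and 6 lower, and 3 were higher with the replicate block or without the libraries that stood apart. CCL2, which draws monocytes, was at 24.1 to 296 TPM in MAD (median 90.8) and at 75.2 to 1153 TPM in ULB (median 217), overlapping ranges (-1.37, SE 0.232), and CCL8 (-1.66), CCL3L1 (-1.23) and CXCL14 (-1.05) were lower too. Of the higher ones, CCL5, CCL19 and CXCL11 lost the call without libraries high in genes of other tissues, and ACKR2 (0.90) and CCL21 kept it. TGM2, a transglutaminase of inflammation and apoptotic cell clearance, had medians of 42.6 and 12.1 TPM (1.77, SE 0.175), and PTX3, a pentraxin of innate defence, was higher as well (1.25). S100A8 was lower (-0.93). Of 12 complement genes, C7 (1.81) and CFI (0.76) were higher and C5 (-1.43) and C4A (-0.86) lower. The count of higher ones was 3 with the replicate block, where C3 (0.57 without it) joined, and 4 without the libraries that stood apart, and 2 were lower in each. Of 17 interferon-stimulated genes, MX2 (0.69) was higher, and ISG15 (-1.08) and RSAD2 (-0.65) were lower.

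Of 4 tested mesothelial markers, 1 was lower in MAD and 0 higher. It was the keratin KRT8 (medians 1.97 and 4.42 TPM, -0.66), a call that was lost without ULB replicate 7 (-0.59, adjusted p = 0.058). With the replicate block 2 were lower, PDPN being the other. The summed TPM of the 9 markers found in the table was 8.05 to 146 in MAD and 10.3 to 138 in ULB, with CALB2 at a median of 0 in both.

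Several core genes of the fat cell did not pass. PPARG, the master factor of adipogenesis, had medians of 177 and 206 TPM (log2 fold change -0.14, SE 0.120, adjusted p = 0.35), and CEBPA had medians of 146 and 221 TPM (-0.20, SE 0.191, adjusted p = 0.43). Of 20 adipocyte genes, 5 were higher in MAD and 1 was lower. PLIN4, a lipid droplet coat protein, was at 376 to 4895 TPM in MAD (median 1283) and at 172 to 1501 TPM in ULB (median 459), overlapping ranges (1.41, SE 0.168). RBP4 (1.21) and ADRB1, the beta-1 adrenergic receptor (1.43), were also higher, and LEP, which encodes leptin, was lower (medians 322 and 595 TPM, -0.80, SE 0.153).

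Of 19 tested lipogenesis genes, 1 was higher and 3 were lower in MAD, and 4 were lower with the replicate block. SCD, the desaturase that makes oleate from stearate, ran from 62.7 through 1359 to 9388 TPM in MAD and from 3706 through 8821 to 21170 TPM in ULB. The ranges met, but 17 ULB libraries were above every MAD library (-2.55, SE 0.254, adjusted p = 5.7e-14). FASN (0.46, adjusted p = 0.16), ACLY (-0.01) and THRSP (0.19) did not pass, and ACACA (0.37) was under the fold limit. Of other desaturases in the list, SCD5 (0.96) was higher, and FADS1 (0.13) and FADS2 (0.53) were not called. SREBF1 (-0.97), a factor that drives lipogenesis, and AACS (-1.57), which activates acetoacetate for lipid synthesis, were lower. Of 16 lipolysis genes, 6 were higher and 1 lower. MGLL (0.79), NPR3 (1.12), PTGER3 (1.0) and ADRB1 were higher in either fit, whereas PNPLA2 (0.60) and LIPE (0.65), the lipases of the first steps, lost the call with the replicate block. PNPLA3, a lipase homologue regulated with lipogenesis, was lower (medians 21.2 and 98.2 TPM, -2.14, SE 0.165). PCK1, which supplies glycerol for triglyceride in fat, was at 20.5 to 712 TPM in MAD (median 68.6) and at 4.75 to 70.6 TPM in ULB (median 12.9), and 17 MAD libraries exceeded every ULB library (2.48, SE 0.262). ACSL4 (0.66) was the other of 17 triglyceride synthesis genes to be higher, and 0 were lower.

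In fatty acid oxidation, CPT1A, the gatekeeper of mitochondrial fatty acid entry (medians 53.9 and 26.8 TPM, 1.03, SE 0.111), and PDK4, which holds back glucose oxidation (1041 and 351 TPM, 1.06), were higher, and ETFB (-0.73) and ACAA2 (-0.68) were lower, of 20. Among 23 nuclear-encoded respiratory chain genes SDHA (-0.65) and ATP5F1C (-0.64) were lower and 0 higher, and the call of ATP5F1C was lost with the block. The summed TPM of mitochondria-encoded genes ran from 11820 to 316020 in MAD and from 12260 to 250009 in ULB. ND6 (0.76) passed without the block only. Of 16 thermogenic genes, 3 were higher and 3 lower. The higher ones were TMEM26 (1.88), EBF2 (0.62) and TBX1, and the lower ones were UCP3 (-0.83), the calcium channel RYR2 (-0.83) and ZIC1. TBX1 and ZIC1 are the patterning factors named above, and the call of EBF2 was lost with the replicate block.

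Hormone and clock genes were also set apart by depot. PGR, the progesterone receptor, ran from 8.68 to 56.1 TPM in MAD (median 23.9) and from 1.46 to 7.46 TPM in ULB (median 2.92), with no overlap (2.96, SE 0.132, adjusted p = 3.8e-32). ESR1, the oestrogen receptor, was lower (medians 5.18 and 11 TPM, -0.94, SE 0.117). RXRG (1.92), FKBP5 (0.67) and ZBTB16 (0.94), the last of them glucocorticoid targets, were higher among 16 steroid genes. SULT1E1 (-1.56), which inactivates oestrogen, and HSD17B6 (-0.69), whose call was lost with the replicate block, were lower. Of 17 circadian clock genes, 6 were lower and 0 higher: BHLHE40 (-1.42), CIART (medians 7.08 and 16.5 TPM, -1.13), DBP (-0.88), CRY2 (-0.69), NR1D2 (-0.65) and TEF (-0.61), of which CRY2 and TEF lost the call with the block. Times of sampling were not used here. Of 11 nerve and Schwann cell genes 4 were higher and 4 lower. GFRA3 (-1.0) was among the lower ones, and NCAM1 (1.29) and CDH19 (0.97) were among the higher ones. Few genes of other tissues were detected widely enough to be tested, although single libraries were high in them (above). Of these, 1 of 3 skeletal muscle genes was higher (CKM, 0.89) and 1 of 2 exocrine pancreas genes was lower (CPA1, -1.91). None of 2 keratinocyte or 2 intestinal epithelium genes passed. With the replicate block, the keratinocyte gene DSP (0.44 without it) was higher and the epithelial gene EPCAM (-0.16 without it) lower. Of 18 immediate early genes, KLF2 (0.94) and KLF4 (0.60) were higher and 0 lower (1 higher without libraries high in genes of other tissues), with FOS at 0.33.

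The open or closed state of the genome was measured as the A-B index of every 20-kb bin, positive in the A compartment and negative in B. Of 113298 bins, 3842 had a higher index in MAD (3.39%) and 9836 a lower one (8.68%), at an adjusted p below 0.05 in limma and a difference of means above 0.75. This split changed with normalization. After quantile normalization between samples, 4795 were higher and 4995 lower, and the median difference over all bins moved from -0.0886 to -0.00641. That step gives every sample the same distribution, so it removes a genome-wide shift of the index whatever its source. With the replicate block and no such step, 4103 were higher and 10439 lower. The cause of the uneven split was not tested. Bins that changed compartment outright, with over 80% of samples in A in the one depot and over 80% in B in the other, numbered 51 with A in MAD and 116 with A in ULB, 0.147% of all bins together.

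Genes of the largest expression differences often sat in bins that differed too. The bin of NKX2-3 had an index of 1.92 ± 0.671 (SD, n = 37) in MAD and 0.0563 ± 0.388 (SD, n = 39) in ULB, a difference of 1.86 (SE 0.124, adjusted p = 5.9e-22). It was in A in 100% of MAD and 51.3% of ULB samples. TCF21 stood at 1.23 ± 0.503 in MAD and 0.333 ± 0.545 in ULB, and its lowest MAD sample lay below the highest ULB sample. WT1 was in A in 56.8% of MAD samples and 0% of ULB samples (0.230 ± 0.614 and -1.05 ± 0.486, adjusted p = 2.7e-14). Among the genes lower in MAD, FGF10 had an index of -2.87 ± 0.465 in MAD and -1.04 ± 0.463 in ULB, so that it lay in B in every sample of both depots although its index differed by -1.83 (SE 0.106, adjusted p = 4.6e-25). ZIC1 was mostly in B, with 5.13% of ULB samples in A, at -2.37 ± 0.513 and -0.763 ± 0.543 (difference -1.61, SE 0.120). EN1 stayed mostly in A, at 0.665 ± 0.506 and 2.05 ± 0.758 (difference -1.39, SE 0.146). POSTN was in A in 2.70% of MAD samples and 64.1% of ULB samples. By contrast the bins of PI16 (difference 0.0350), SCD (-0.0248) and PGR (-0.309), whose expression differed, were not called.

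**Figure D3:**
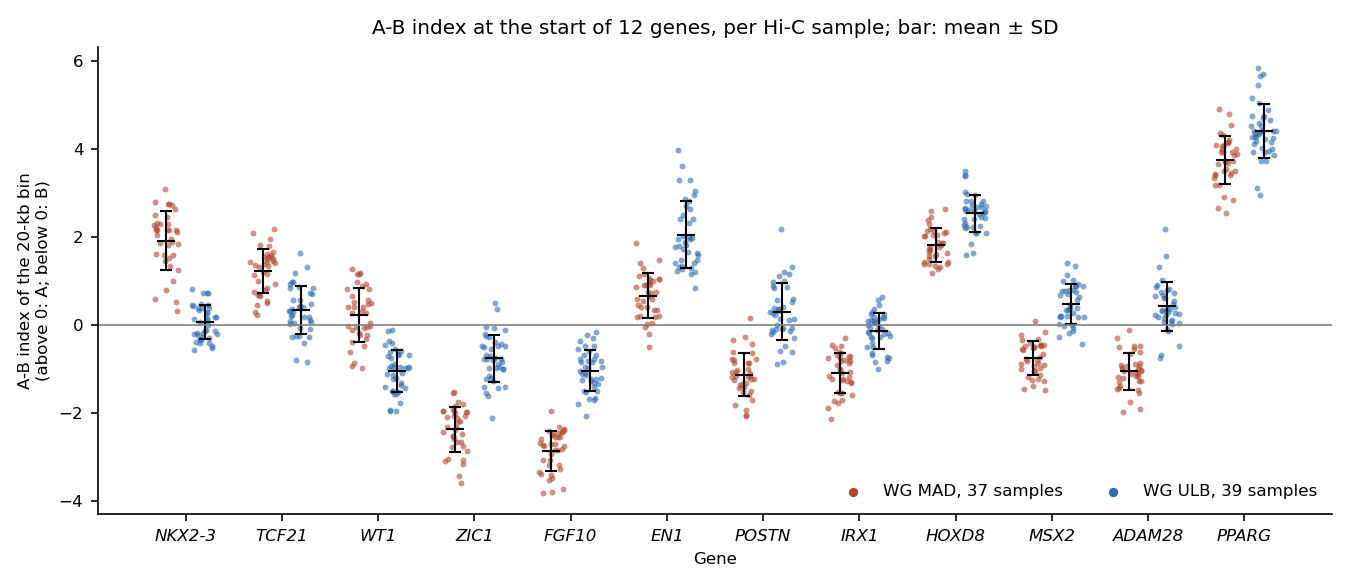
A-B index of the 20-kb bin at the start of 12 genes in every WG Hi-C sample (37 MAD, red; 39 ULB, blue), with mean and SD; values above 0 are compartment A. NKX2-3, TCF21 and WT1 lie higher in MAD, ZIC1, FGF10, EN1, POSTN, IRX1, HOXD8, MSX2 and ADAM28 lie higher in ULB, and PPARG is in A in both.

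Among the 10 named genes with the largest lower expression in MAD, 8 had a bin called lower in MAD, and 6 after quantile normalization. Of the 10 with the largest higher expression, 2 had a bin called higher, NKX2-3 and TCF21, and 3 after quantile normalization. Over all DEGs with a bin, 42 of 857 genes higher in MAD were in a bin with a higher index (4.90%) and 15 in one with a lower index (1.75%). Of 666 genes lower in MAD, 70 were in a bin with a lower index (10.5%) and 8 in one with a higher index (1.20%). The other 8849 tested PCGs gave 3.16% and 2.06%. Turned round, the 160 tested PCGs in bins that were in the same compartment in over 80% of the samples of both depots but had a lower index in MAD held 51 lower (31.9%) and 11 higher DEGs (6.88%), and the 259 in bins with a higher index held 26 higher (10.0%) and 7 lower DEGs (2.70%), against 8.26% higher and 6.42% lower over the 10372 PCGs with a bin.

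Few PCGs with a known position started in bins that switched compartment. There were 3 in the 51 bins with A in MAD and 4 in the 116 bins with A in ULB, beside 13066 in all 113298 bins. These counts are too small to tell whether such bins are poor in genes. The bins in A in ULB and in B in MAD held 3 tested PCGs, and all 3 were lower in MAD: MSX2, a homeobox factor of limb and skin (medians 0.424 and 3.46 TPM, -3.11, SE 0.258), ADAM28 (-1.13) and PCDH17 (-1.02). At MSX2, 2.70% of MAD samples and 82.1% of ULB samples were in A. The bins in A in MAD and in B in ULB also held 3 tested PCGs, FAM210B, PRRC1 and RIC3, and none of them was a DEG (log2 fold changes -0.05, -0.15 and 0.37). A run of 2 such bins, chr14:110660001-110700000, ended 20.4 kb before NKX2-3. The longest runs of the other direction, 6 bins each, held no PCG start: chr8:99860001-99980000 lay 77.2 kb from ANKRD50 (-0.16, not a DEG), and chr15:82500001-82620000 lay 439 kb from MTX2 and 512 kb from HOXD1.

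H3K27ac marks active promoters and enhancers. Here its regions were called on pooled reads, and no test between depots was run on these few tables. The authors set the caller to exclude promoter regions and merged neighbouring regions. A promoter outside all regions therefore need not lack the mark. The tables of MAD held 22368, 25398 and 23198 regions that covered 419, 420 and 457 Mb, and those of ULB held 19753 and 19395 regions over 283 and 344 Mb. At NKX2-3, all 3 MAD tables had a region over the gene and its promoter, 44.2, 46 and 34.2 kb long and ranked 1329, 1974 and 2222 by signal, and neither ULB table had a region within 10 kb. ZIC1 was the opposite: there was no region in the MAD tables, and regions of 6.20 and 48.8 kb in the ULB tables. At EN1, the regions were 1.40 to 3 kb long and away from the promoter in MAD, against 49.0 and 34.6 kb over the promoter in ULB, where they ranked 1429 and 897. HAND2 had regions of 28.8 to 29 kb in MAD and of 1.80 and 2.40 kb in ULB. At WT1, the promoter lay in a region in all 3 MAD tables and in neither ULB table. FGF10 had regions in 1 ULB table alone, up to 18.2 kb long. The HOXD8 promoter lay in a region in both ULB tables, once a super-enhancer of 39 kb, and in no MAD table. Other genes did not split in this way. The promoters of TCF21 and PI16, both higher in MAD, lay in a region in all 3 MAD tables and also in 1 ULB table each. The HOXD3 promoter lay in a region in 1 MAD table and in no ULB table, although HOXD3 was lower in MAD (-0.97). Over all DEGs with a position, 23 of 857 higher in MAD had a region in all MAD tables and no ULB table (2.68%), against 10 of 666 lower ones (1.5%) and 127 of 8849 others (1.44%). The covered length was larger in MAD in every table, and its part in these shares was not tested.

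MAD maps were divided into fewer TADs than ULB maps. There were 4882 ± 127 TADs (SD, n = 37, range 4497 to 5208) in MAD and 5295 ± 208 (SD, n = 39, range 4847 to 5674) in ULB, a difference of -413 (2-sided permutation test, p = 1e-05, the smallest that 100000 permutations can give). The ranges overlapped, and in 29 of 31 pairs with the same replicate number the MAD map had fewer. The median TAD length was 353 ± 11.8 kb in MAD and 336 ± 12.7 kb in ULB. Contact numbers per map were not used here, and their part in the difference was not tested. Of 10991 boundaries, 68 were frequent (at least 70% of samples) in ULB and rare (under 30%) in MAD, 8 were the reverse, and 3775 were frequent in both. Within 100 kb of the 68, 54 PCGs were tested, of which 8 were higher and 6 lower in MAD, beside 8.26% and 6.42% of all PCGs with a bin. The lowest shares of MAD samples were on chromosome 15, at positions 23780000, 23980000 and 24100000 (0% of MAD and 84.6 to 87.2% of ULB samples). Position 24300000 followed, at 2.70% and 82.1%. No tested PCG lay within 100 kb of these, and EN1 starts further along this chromosome. The boundary at position 108320000 of chromosome 9 had SFRP4 and EPDR1, both lower in MAD, and NRCAM, higher in MAD, within that distance. It was present in 27% of MAD and 84.6% of ULB samples.

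**Figure D4:**
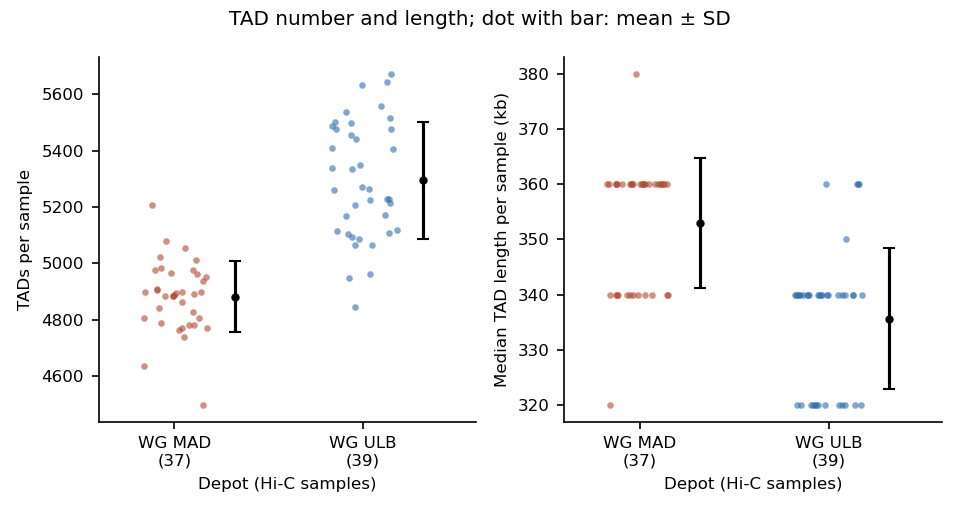
Number of TADs and median TAD length (kb) of every WG Hi-C map, MAD in red and ULB in blue, with mean and SD. MAD maps hold 4497 to 5208 TADs and ULB maps 4847 to 5674, with longer TADs in MAD.

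The last comparison asked whether the depot difference of WG pigs changed with nutrition. In the fits without the replicate block, the interaction of depot and nutrition passed in neither comparison for the 20 genes named for the largest differences. Their interactions under the block, where more PCGs passed (below), are not reported here. NKX2-3 was at 3.54 to 14.2 TPM in WL MAD and at 0 to 0.175 TPM in WL ULB, and at 3.18 to 24.5 TPM in NC MAD and at 0 to 0.205 TPM in NC ULB (log2 fold changes 8.01 and 7.71). ZIC1 was listed at 0 in all 10 WL MAD libraries and ran from 5.75 to 37.5 TPM in WL ULB. EN1 had log2 fold changes of -4.86 in WL and -4.91 in NC, and SCD of -3.76 and -3.08.

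Against WL, 349 of 14158 PCGs had a positive interaction (2.47%), that is a larger log2 fold change of MAD over ULB in WG, and 609 a negative one (4.30%). Much of that count went with 3 WL MAD libraries, replicates 1, 6 and 7, whose summed TPM of B and plasma cell genes was 2450 or more. Without them, which left 7 WL MAD libraries, 29 were positive and 31 negative. With a block for the replicate number, 1290 were positive and 997 negative. Lymphocyte genes were among those that moved with these libraries: CCR7, IL7R, CD28 and CD79B had interactions of -2.79, -1.84, -1.82 and -3.22 with all libraries and of 0.49, -0.32, 0.22 and 1.13, none of which passed, without the 3. PCK1 passed in all 3 alternatives. It was at 7.41 to 194 TPM in WL MAD (median 43.3) and at 53.7 to 216 TPM in WL ULB (median 120), so that the higher median was in ULB (log2 fold change within WL -1.11, adjusted p = 0.072). The interaction was 3.59 (adjusted p = 1.4e-05), and 3.27 without the 3 libraries (adjusted p = 0.0039). PLIN4 followed, with medians of 491 TPM in WL MAD and 1182 TPM in WL ULB (interaction 2.08, adjusted p = 0.00061, and 1.67 without the 3, adjusted p = 0.045). FBN1 had medians of 273 and 245 TPM in WL, a smaller depot difference (interaction 1.37, adjusted p = 0.00018). CPT1A (0.81) and PGR (1.43) had interactions that were lost without the 3 libraries (adjusted p = 0.15 and 0.051).

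Against NC, 37 of 14228 PCGs had a positive interaction (0.260%) and 20 a negative one (0.141%), with 946 and 862 under the replicate block. These counts rested on few libraries: without NC ULB replicate 2 there were 16 and 5, and 20 negative ones became 3 without NC MAD replicate 1. Of 10 named genes with an interaction, 7 lost the call without NC ULB replicate 2, and 2 or 3 without any 1 of the other 4 NC ULB libraries. FBN1 again had a smaller depot difference, with medians of 247 and 184 TPM in NC (interaction 1.35, adjusted p = 0.0029), and passed in each of these fits. MFAP5 had an interaction of 1.72 (adjusted p = 0.0097) and BMP7 one of 2.82, and both lost the call without NC ULB replicate 2 (adjusted p = 0.080 and 0.068). TIMD4 ran from 0 to 4.48 TPM in NC MAD and from 2.95 to 8.87 TPM in NC ULB (interaction 2.78, adjusted p = 0.014), and its interaction also passed in each of these fits. MYH11 had an interaction of -3.06, but NC MAD replicate 1 held 5531 TPM of it, against 1477 in the next, and without this library the interaction did not pass (-1.83, adjusted p = 0.31).

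**Figure D5:**
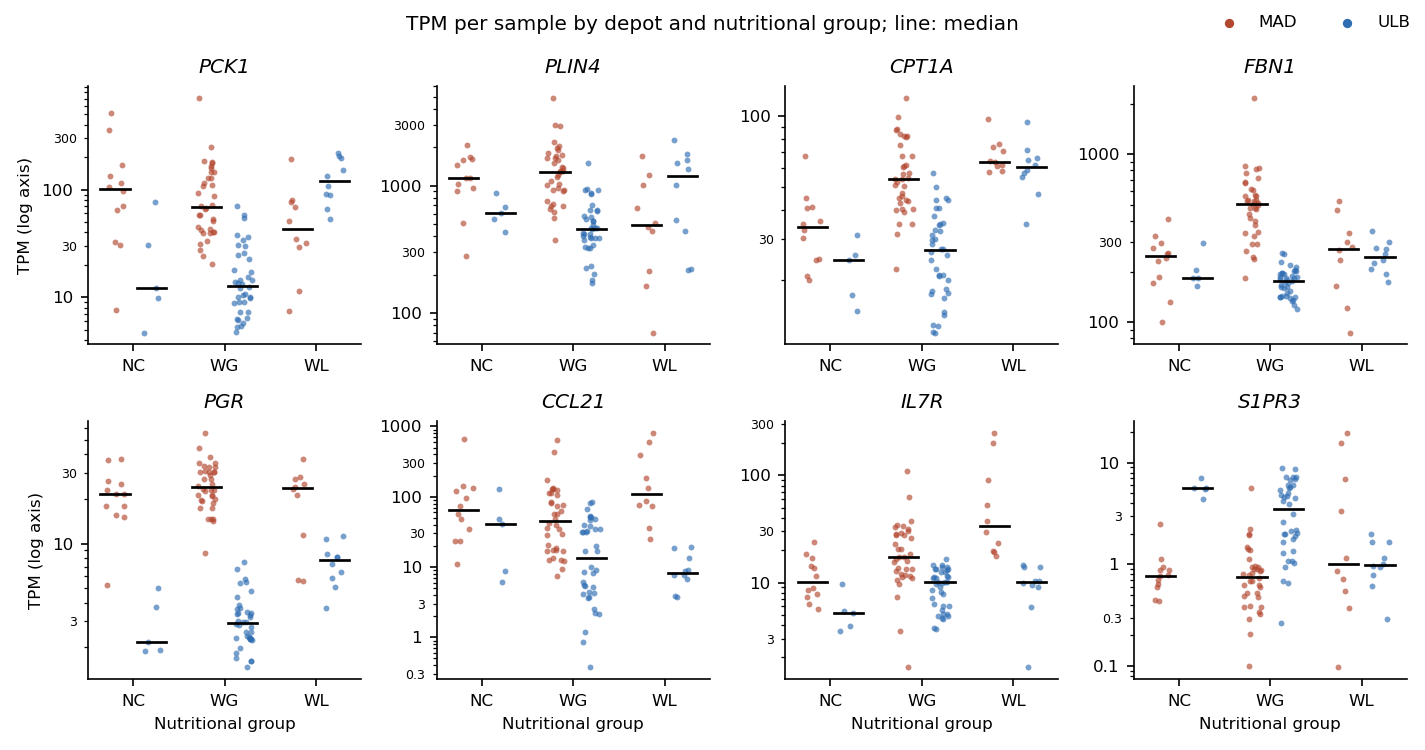
TPM (log axis) of 8 genes in every NC, WG and WL library, MAD in red and ULB in blue, with the median as a line. PCK1 and PLIN4 are higher in MAD in WG and have the higher median in ULB in WL, and the 2 highest IL7R values are of WL MAD libraries.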

How the data were processed

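RNA-seq, in situ Hi-C and H3K27ac ChIP-seq of MAD and ULB were taken from the tables the authors deposited. The authors made the estimated counts and TPM values per PCG with kallisto 0.43.0 and tximport (Sscrofa11.1). The estimated counts were rounded to whole numbers here. The deposited A-B index is a score per 20-kb bin from normalized Hi-C maps, positive in compartment A, and TADs were deposited per sample. H3K27ac signal per region was deposited by the authors from pooled reads (BWA 0.7.15, SAMtools 1.3.1), with rank and super-enhancer mark. In each of the count and index tables, 9 columns matched no deposited sample and were not used.

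PCGs that passed 0.5 TPM in 80% or more of one depot's libraries were tested with edgeR 4.0.16 (quasi-likelihood, TMM, R 4.3.3), and bins with limma 3.58.1, both with Benjamini-Hochberg adjustment over all features. Interactions of depot and nutrition were fitted in edgeR and called at an adjusted p under 0.05. TAD numbers were compared by permutation tests. The scripts were tested on simulated data. Depth per library is given in the report, and the contact numbers of the Hi-C maps, which the study gives, were not used here.

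Replicate numbers paired the WG RNA libraries: all 30 pairs correlated above 0.1 (r 0.259 to 0.803, median 0.609) in their deviations from the group means. Samples are those the labels list as separate. The main fits did not use the pairing by number, and their p-values measure the spread between samples taken as independent. Fits with the replicate block are given as alternatives.

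The members and the 39 gene lists were chosen with earlier results of these data known. Named genes were the 10 DEGs of largest change in each direction with a symbol and a mean of at least 5 TPM in the higher depot, the 2 most changed DEGs per list and direction (or the most abundant member), genes the study names for depots, genes at compartment switches, and the 3 largest interactions per test and direction. Other list members were named after their values were seen. The alternatives tried were other normalizations, filters, thresholds and tools, the replicate block, and sets of libraries left out. Those without the libraries that stood apart, without 3 WL MAD libraries, without 1 NC MAD library and without each NC ULB library, and quantile normalization for the expression of genes by bin, were chosen after seeing the data. Some genes that the rule names are not reported here.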

Additional observations from a re-analysis of the deposited data

Results flagged for a closer look

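Differences of the depot effect between nutritional groups are given as the log2 fold change of MAD over ULB in WG minus that in WL or NC, each from edgeR's test of the interaction. Against WL the positive ones were PCK1 (3.59), COL4A3 (2.75), SLC6A2 (2.65), PTX3 (2.59), PLIN4 (2.08), RXRG (1.51), PGR (1.43), FBN1 (1.37), CD163 (1.31) and CPT1A (0.81). The negative ones were SLC4A5 (-4.65), STMN2 (-4.51), S1PR3 (-4.30), CD79B (-3.22), CCL21 (-2.97), CCR7 (-2.79), CPA1 (-2.45), IL7R (-1.84), CD28 (-1.82), C5 (-1.73), C4A (-1.46), AACS (-1.30), HOXD9 (-1.02) and CIART (-0.87). Without the 3 WL MAD libraries high in lymphocyte genes, PLIN4, PCK1, C5, FBN1, CPA1 and SLC4A5 still passed.

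Against NC the positive ones were GLYATL2 (3.68), BMP7 (2.82), TIMD4 (2.78), SLC6A2 (2.43), MFAP5 (1.72), SFRP4 (1.49) and FBN1 (1.35), and the negative ones were DIRAS3 (-4.45), SPMAP1 (-4.07) and MYH11 (-3.06). Without the NC MAD library high in smooth muscle genes, MYH11 and DIRAS3 no longer passed. Without NC ULB replicate 2, 7 of the 10 no longer passed, and FBN1, TIMD4 and SFRP4 still did.

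In 5 of 42 groups of values, 1 library lay far from the rest by Dixon's test. Chance does this in about 1 of 20 groups of independent, normally distributed values. TPM values need not be normal and the groups shared libraries, so that rate may not hold here. The groups were of WL MAD, WL ULB and NC ULB only. PCK1 was at 194 TPM in 1 WL MAD library, with the next at 80.7. MYH11 was at 449 TPM in 1 WL MAD library (next 151) and at 282 TPM in 1 WL ULB library (next 110). STMN2 was at 11.6 TPM in 1 WL ULB library (next 6.85), and SPMAP1 at 0.417 TPM in 1 NC ULB library, with the others at 0.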

How the results depend on the processing

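Among the 127 named genes, no depot difference called in the main fit or an alternative changed sign in any of the 11 alternatives. Sign changes of genes called in neither were not counted. Between 0 and 14 genes lost the call in an alternative. Without a TPM filter, 1903 PCGs were higher and 1336 lower in MAD, and above 2-fold 454 and 343. Of A/B variables (bins in 1 compartment with a changed index), 7104 were higher and 19063 lower above a difference of 0.5, and 3558 were lower with quantile normalization. With over 90% of samples required, 0 and 11 bins switched compartment. At 80% and 20%, 51 and 116 bins changed compartment frequency and 1 and 7 boundaries changed. The replicate block took interactions with WL to 1290 positive and 997 negative and those with NC to 946 and 862, and it removed the calls of CCR7, CD28 and DIRAS3. Without libraries under 85% of TPM on PCGs, interactions numbered 86 and 239 with WL and 17 and 7 with NC. Without the 3 lymphocyte-rich WL MAD libraries they numbered 29 and 31 with WL, and CCR7 (0.49), CD79B (1.13) and CD28 (0.22) turned positive. Without the smooth muscle NC MAD library 3 were negative with NC. Leaving out each NC ULB library gave 16 to 41 positive and 5 to 13 negative. Apart from fewer samples, the causes were not tested.

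The replicate block left 4103 bins of the A-B index higher and 10439 lower in MAD. Same-numbered samples correlated above 0.1 in 19 of 31 pairs of the index, 8 of 10 of WL and 3 of 5 of NC RNA. Since not all pairs did, the number was not taken as a sure pairing there, and the blocked fits are alternatives.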

Other observations

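The genes that set MAD and ULB apart were also measured in 45 WG libraries of greater omentum (GOM) and 39 of retroperitoneal fat (RAD), which were not tested here. NKX2-3 was at 1.44 to 11.8 TPM in GOM (median 2.90), and it reached 0.165 TPM in RAD, where the median was 0. TCF21 had medians of 6.73 TPM in GOM and 0.371 TPM in RAD, and WT1 of 40.2 and 7.21 TPM. GOM and RAD thus lay apart for NKX2-3 and TCF21, with no overlap of their ranges. EN1 was at 0 to 0.856 TPM in GOM and at 1.87 to 8.25 TPM in RAD, FGF10 had medians of 0.881 and 9.79 TPM, and HOXD8 of 9.70 and 51.6 TPM. ZIC1 was at a median of 0 in both and reached 0.224 TPM in GOM and 0.363 TPM in RAD. PGR, which was higher in MAD than in ULB, had medians of 15.4 TPM in GOM and 30.6 TPM in RAD.

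SLC4A5, a bicarbonate transporter, was at 0.0689 to 9.27 TPM in WL MAD (median 3.29) and at 0 to 0.254 TPM in WL ULB. S1PR3, a receptor of sphingosine 1-phosphate, had medians of 1.000 TPM in WL MAD and 0.982 TPM in WL ULB, with up to 19.8 TPM in WL MAD.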
